A study of Homo sapiens with 8 samples.

Results

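NF-κB is a family of dimeric transcription factors, and the genes described here encode 4 of its subunits: NFKB2 and RELB, whose products p52 and RelB form the dimer of the alternative pathway, and NFKB1 and REL, whose products p50 and c-Rel belong to the classical pathway. They were read in L363, a human myeloma cell line of plasma cell type, after treatment with MLN120B, a small-molecule inhibitor of the kinase IKKβ. The members were all array features that the platform's probe-to-gene annotation assigned to these genes. There were 17 such features of 15246 on the array, 7 for NFKB2, 3 for RELB, 3 for NFKB1 and 4 for REL, and 16 of them had a value on at least 1 array. Features of a gene are lettered from a, those with values on most arrays first.

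In the classical pathway, IKKβ marks the inhibitor IκBα for destruction, which frees dimers such as p50 with RelA or c-Rel. In the alternative pathway the kinases NIK and IKKα drive the processing of p100, the product of NFKB2, to p52, which acts with RelB. Several subunit genes are themselves induced by NF-κB, and many myelomas carry active signalling through one or both pathways.

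The study compared L363 cells given 12.5 µM MLN120B for 8 h (2 samples), 12 h (3 samples) or 24 h (3 samples) with L363 cells given the solvent DMSO. Each of the 8 samples was hybridised on its own array, the treated cDNA labelled with Cy5 and the DMSO cDNA with Cy3, and no array had the dyes exchanged. The labels give no time for the DMSO cells and do not state whether the samples were separate cultures. P-values here thus reflect the spread between samples, which may be technical. All results come from 1 cell line and 1 dose. Values are the authors' log2 ratios, centred on each array's median, and are likely MLN120B over DMSO, so a negative value means a lower share of the RNA with the inhibitor. Fewer cells holding a transcript and less of it per cell cannot be told apart in such bulk RNA. The direction is not stated and rests on the dyes in the labels. If it were turned, the log2 values below would change sign at the same size, the linear ratios would become their inverses, and shares of genes lying lower would become shares lying higher.

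The arrays differed widely in spread. Database identifiers in the labels fall into 3 groups of neighbouring values, called database runs here. Run 1 consists of both arrays of sample 3. The arrays of run 2 are sample 2 of 8 h with sample 1 of 12 h and 24 h. Those of run 3 are sample 1 of 8 h with sample 2 of 12 h and 24 h. The series description mentions 3 time courses without saying which arrays form each. The SD over features was 0.35 to 0.58 in run 1, 1.00 to 1.42 in run 2 and 0.21 to 0.28 in run 3. Correlations over genes were 0.10 to 0.61 within runs (7 pairs) and -0.20 to 0.23 between runs (21 pairs). Values in run 2 therefore lie on a wider scale than those in runs 1 and 3. Ratios of 2 channels show a change and not a level, so plasma cell markers could not be used to check the cell type. All 9 plasma cell markers listed were measured, with a median ratio of 0.22 over the 3 times. The 4 T cell markers tested had a median of -0.26 and the 3 myeloid markers 0.20, and none of these 16 genes passed in limma's test adjusted over all rows.

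The upstream sequences of the members are shown because the 3 genes with a RefSeq promoter window hold matches to the κB consensus, the short pattern that NF-κB dimers bind. A window runs from 250 bases before a RefSeq start site to 50 bases after it (GRCh38.p14). The 250 bases before the start are printed, all on the + strand, with matches on either strand in capitals. NFKB2 lies at chr10:102394110-102402529 and has 3 windows. The second covers chr10:102394328-102394577 and the third chr10:102395455-102395704. The printed NFKB1 window covers chr4:102501109-102501358 and that of REL chr2:60881324-60881573.
NFKB2, the second start: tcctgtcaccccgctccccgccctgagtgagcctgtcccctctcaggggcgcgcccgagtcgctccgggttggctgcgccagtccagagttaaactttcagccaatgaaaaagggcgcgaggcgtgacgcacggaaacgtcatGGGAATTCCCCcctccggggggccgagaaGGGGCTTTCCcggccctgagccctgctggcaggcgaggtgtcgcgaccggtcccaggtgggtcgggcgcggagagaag
NFKB2, the third start: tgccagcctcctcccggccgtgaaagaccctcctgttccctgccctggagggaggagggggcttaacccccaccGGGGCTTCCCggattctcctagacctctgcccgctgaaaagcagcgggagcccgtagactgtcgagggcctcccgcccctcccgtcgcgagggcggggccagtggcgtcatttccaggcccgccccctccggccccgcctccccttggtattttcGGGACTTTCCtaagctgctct
NFKB1, the first start: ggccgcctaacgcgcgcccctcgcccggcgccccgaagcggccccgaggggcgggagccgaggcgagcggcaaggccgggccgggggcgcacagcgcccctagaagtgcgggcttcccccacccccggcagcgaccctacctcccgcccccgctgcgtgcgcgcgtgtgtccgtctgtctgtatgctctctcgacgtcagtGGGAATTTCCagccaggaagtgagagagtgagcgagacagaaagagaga
REL: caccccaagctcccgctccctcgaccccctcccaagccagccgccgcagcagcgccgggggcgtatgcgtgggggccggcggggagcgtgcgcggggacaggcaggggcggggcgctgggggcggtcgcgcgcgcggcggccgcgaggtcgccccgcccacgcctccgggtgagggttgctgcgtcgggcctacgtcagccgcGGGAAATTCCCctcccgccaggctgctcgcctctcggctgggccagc
The second NFKB2 window holds 2 marked sites, which begin 107 and 78 bases before the start. The third NFKB2 window holds 2, which begin 176 and 21 bases before it. NFKB1 and REL hold 1 each, beginning 49 and 47 bases before the start. The sites of 11 bases are overlapping matches on both strands, counted as 1. In all, 4 of 6 member windows held a match, as did 11.3% of all 35116 windows of this length. The first NFKB2 window and the second NFKB1 window held none. A match describes these letters and is no evidence of binding. RELB lies at chr19:45001464-45038192.

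NFKB2, which encodes the p100 precursor of p52, had the lowest mean ratio of the 4 genes over the 8 arrays. It lay below RELB on 4 of 8 arrays, and without run 2 RELB had the lower mean over the 3 times, -0.71 against -0.55 for NFKB2. Averaged over its features it was at -0.15 and -2.54 on samples 1 and 2 at 8 h. At 12 h samples 1, 2 and 3 were at -2.39, -0.38 and -0.70. At 24 h they were at -2.35, -0.71 and -1.21. All 8 arrays lay below 0, and the 3 arrays of run 2 were the lowest. Of 3460 rows with values on all arrays, which are genes or single features without a named gene, 1.3% lay below 0 on all 8.

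Over the 3 times NFKB2 averaged -1.31 ± 0.33 (SE, n = 8), a ratio of 0.40 on the linear scale (2.48 if the direction were turned). It ranked 10 of 5411 rows by p in limma's test, and its adjusted p over all rows was 0.87. No row passed over the 3 times, and 3.4% of rows had an unadjusted p under 0.05, among them NFKB2 and RELB of the 4 members. With quantile normalization NFKB2 was at -1.44 ± 0.16 (limma, adjusted p = 0.020), and with the database run as a fixed block it was at -1.25 ± 0.12 (adjusted p = 0.039). With the run as a random block it was at -1.29 ± 0.33 and did not pass (adjusted p = 0.99). Without run 2 the mean was -0.55 ± 0.12 (adjusted p = 0.92). Without run 1 it was -1.42 and without run 3 it was -1.95.

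**Figure D1:**
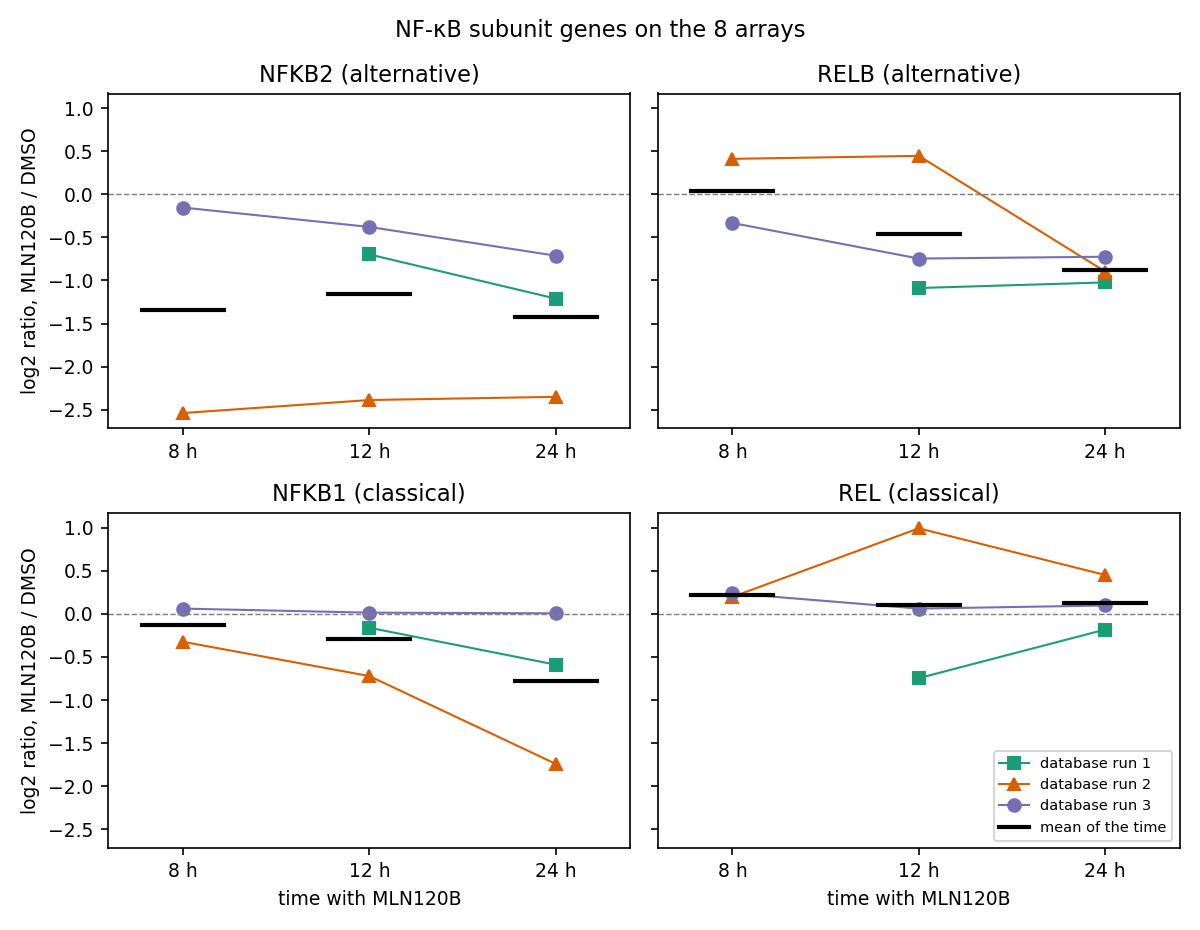
Median-centred log2 ratio (MLN120B over DMSO, vertical axis) of each gene, averaged over its features, at 8 h, 12 h and 24 h (evenly spaced). Symbols are arrays, coloured lines join arrays of 1 database run, and black bars are time means. NFKB2 lies below 0 on all 8 arrays and RELB on 6, while REL lies above 0 on 6.

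The single features of NFKB2 did not give 1 common size. Feature a of NFKB2 was at -0.55 and -1.11 on samples 1 and 2 at 8 h, at -2.58, -0.74 and -1.29 on samples 1, 2 and 3 at 12 h, and at -3.08, -0.95 and -1.54 on samples 1, 2 and 3 at 24 h. Feature b of NFKB2 was at -0.40 and -0.19 at 8 h, at -2.56, -0.55 and -1.27 at 12 h, and at -1.62, -0.87 and -2.08 at 24 h, in the same order. Both were below 0 on all 8 arrays, as were 1.16% of the 4413 features with values on all arrays. Fitted singly over the 3 times, feature a was at -1.41 ± 0.27 (SE) with rank 3 of 7497 features by p, and feature b was at -1.09 ± 0.23 with rank 6. Adjusted over all features both were at 0.87 in limma's test, in which no feature passed and 3.68% had an unadjusted p under 0.05.

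Feature c of NFKB2 lay closer to 0. It had 7 values, from -1.80 to 0.46 with a median of -0.21, and its mean over the 3 times was -0.25 ± 0.26 (SE). Against feature a it was higher by 0.96 ± 0.48 on average (SD, n = 7 arrays). Feature d of NFKB2 had 5 values, from -1.25 to 0.17, and feature f had 3, from -0.77 to 0.19. Feature g of NFKB2 had none.

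Feature e of NFKB2 weighed heavily on the gene's mean in run 2. It was at -10.1 on sample 2 at 8 h and at -3.74 on sample 1 at 12 h, against -0.46, -0.69 and -0.90 on the 3 arrays of run 3. On sample 2 at 8 h, 2 of the 4 T cell markers tested were also far below 0, CD3D at -5.13 and CD3E at -3.78, while CD3G and CD8A were at 0.00 (-0.004) and 0.02. That array had the widest spread of the 8 arrays, with an SD over features of 1.42 and a value of size 12.4. The share of its genes this far below 0 was not counted. Any relation of these values to that of NFKB2 was not tested. The other 4 features measured on sample 2 at 8 h lay between -1.11 and -0.19. Without feature e, an alternative chosen after the data were seen, NFKB2 on that array was at -0.65 in place of -2.54, its 8 h mean was -0.37 in place of -1.35, and its mean over the 3 times was -0.94 ± 0.24 (SE). Still all 8 arrays lay below 0. From feature a and feature b alone, the features present on all arrays, the mean was -1.25 ± 0.23 and run 2 stood at -0.65, -2.57 and -2.35 at 8 h, 12 h and 24 h.

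**Figure D2:**
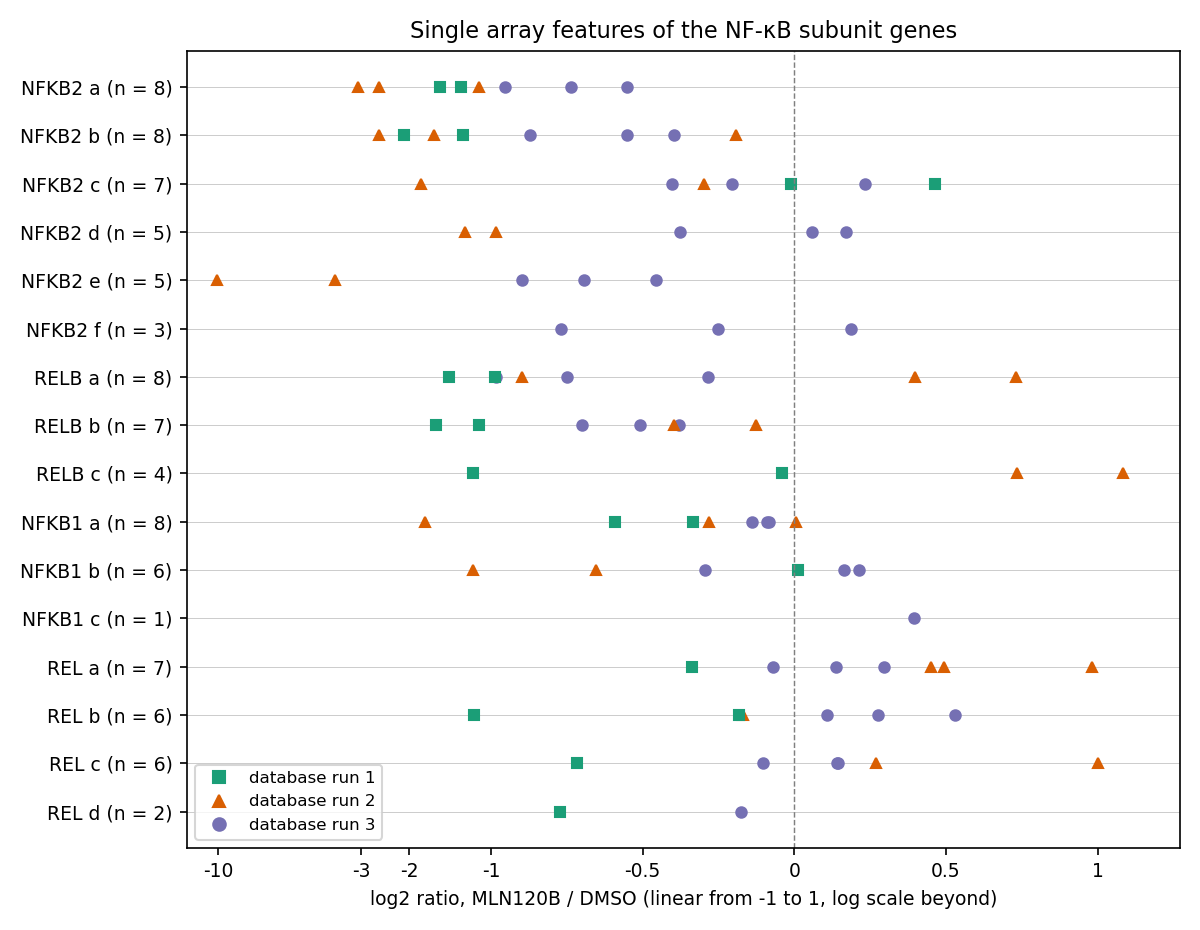
Median-centred log2 ratio (horizontal axis, linear from -1 to 1 and logarithmic beyond) of each annotated feature with a value, 1 row per feature, with the number of arrays in brackets. Symbols are arrays, by database run. Features a, b and e of NFKB2 lie below 0 wherever they were measured, and feature e reaches -10.1 in run 2.

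NFKB2 at 24 h and 8 h differed by -0.08 ± 0.83 in the fit (SE, 95% interval -1.96 to 1.80), and the runs differed in sign. In run 3 the gene was at -0.15, -0.38 and -0.71 at 8 h, 12 h and 24 h, and each of its 6 features was lower at 24 h than at 8 h, by 0.40 to 0.96. In run 2 the gene mean was 0.19 higher at 24 h than at 8 h, but it was taken over 2 features at 24 h and 5 at 8 h. The 2 features with values at both times differed by -1.97 and -1.42 between 24 h and 8 h. In run 1, which has no 8 h array, 3 of 3 features were lower at 24 h than at 12 h. These are single arrays per time, and features of a gene share their RNA, so the counts carry no test. The share of all features that were lower at the later time within a run was not computed. Without feature e the fitted difference was -1.04 ± 0.62 (SE). None of these differences passed in limma's test, in which 0 of 5411 rows passed for 24 h against 8 h and 0.813% had an unadjusted p under 0.05.

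RELB, which encodes the partner of p52, lay below 0 on the 3 arrays at 24 h and was split by run at 8 h and 12 h. At 8 h samples 1 and 2 were at -0.33 and 0.41. At 12 h samples 1, 2 and 3 were at 0.45, -0.75 and -1.09, and at 24 h they were at -0.90, -0.73 and -1.02. The arrays above 0 were the 8 h and 12 h arrays of run 2. The 3 arrays at 24 h lay closer to each other than those of NFKB2 or NFKB1. Sample 1 at 24 h rests on 1 feature, and on sample 3 feature c was at -0.04. From features a and b alone, a choice made after the data were seen, samples 1, 2 and 3 at 24 h were at -0.90, -0.73 and -1.51.

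The RELB mean at 24 h was -0.88 ± 0.15 (SD, n = 3), a ratio of 0.54 on the linear scale (1.84 if the direction were turned). In limma's test it was at -0.88 ± 0.30 (SE, adjusted p = 0.9996). No row passed at 24 h, and 2.01% had an unadjusted p under 0.05, among them NFKB2, RELB and NFKB1 but not REL. At 8 h and 12 h the shares of rows were 2.4% and 3.07%, and none of the 4 members was among them. The members were chosen with earlier results of these data known, so this count is a description. Over the 3 times RELB was at -0.43 ± 0.19 (limma, SE, adjusted p = 0.87). It was at -0.71 ± 0.11 without run 2 and at -0.29 ± 0.30 without run 3. Between 24 h and 8 h it differed by -0.92 ± 0.48 (SE, 95% interval -2.0 to 0.16, adjusted p = 0.99), and within runs 2 and 3 by -1.31 and -0.39.

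The main features of RELB, a and b, had the same sign on 5 of the 7 arrays they shared. Feature b of RELB lay below 0 on 7 of 7 arrays, from -1.60 to -0.13, and its mean over the 3 times was -0.71 ± 0.18 (SE, adjusted p = 0.87 in limma's test). The share of features with 7 values that lay below 0 on all of them was not computed. Feature a of RELB ranged from -1.43 to 0.73, with values of 0.40 and 0.73 on the 8 h and 12 h arrays of run 2. The difference between them, feature a minus feature b, was 0.22 ± 0.47 (SD, n = 7 arrays). Feature c of RELB had 4 values, of which 1.23 and 0.73 were on those same arrays of run 2 and -1.17 and -0.04 in run 1. Without it, an alternative chosen after the data were seen, RELB averaged -0.57 ± 0.18 (SE) over the 3 times and -0.17 at 8 h.

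**Figure D3:**
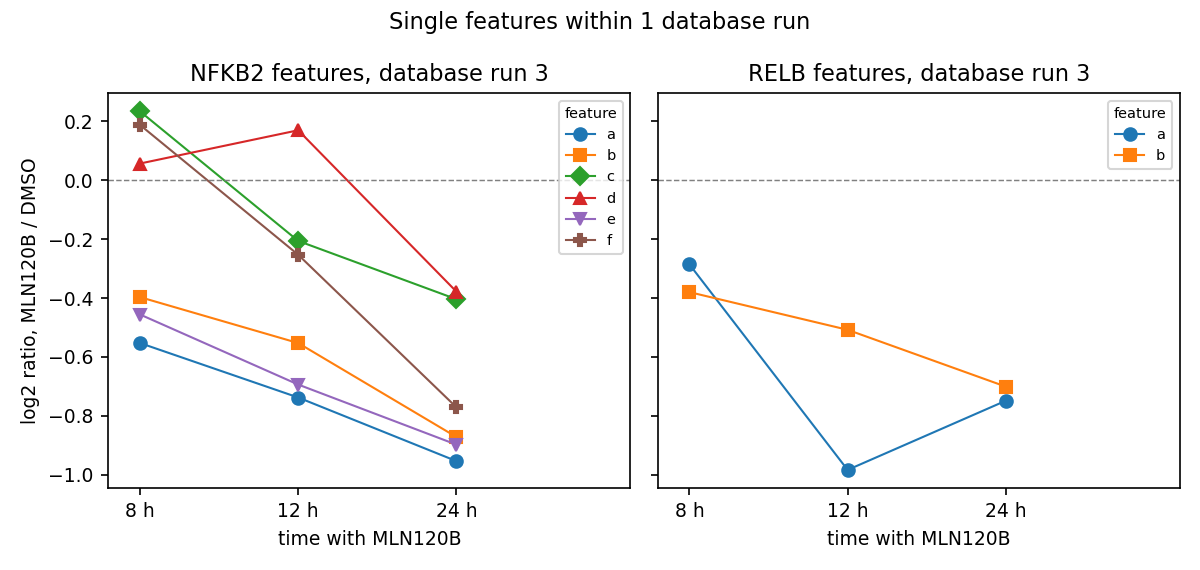
Median-centred log2 ratio (vertical axis) of the single features of NFKB2 and RELB at 8 h, 12 h and 24 h (evenly spaced) on the 3 arrays of database run 3, 1 line per feature. All 6 NFKB2 features and both RELB features are lower at 24 h than at 8 h, and the features of NFKB2 start from different values at 8 h. The share of all features that are lower was not computed.

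NFKB1, which encodes the p105 precursor of p50, stayed close to the array median in run 3 and lay lower in run 2. At 8 h samples 1 and 2 were at 0.06 and -0.32. At 12 h samples 1, 2 and 3 were at -0.72, 0.01 and -0.16, and at 24 h at -1.74, 0.01 and -0.59. The mean over the 3 times was -0.40 ± 0.20 (SE, adjusted p = 0.87 in limma's test), and it was -0.10 ± 0.13 without run 2 and -0.24 ± 0.15 without sample 1 at 24 h. At 24 h it was at -0.78 ± 0.32 (SE, limma adjusted p = 0.9996), and at -0.29 ± 0.27 without sample 1 at 24 h.

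The 2 main features of NFKB1 disagreed. Feature a of NFKB1 lay below 0 on 7 of 8 arrays, from -1.74 to 0.01, while feature b lay below 0 on 3 of 6, from -1.16 to 0.21. They had the same sign on 2 of the 6 arrays they shared. On samples 1 and 3 at 24 h the gene's value rests on feature a alone. Feature c of NFKB1 had 1 value, 0.40 on sample 2 at 24 h.

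REL, which encodes c-Rel, showed no common direction. At 8 h samples 1 and 2 were at 0.24 and 0.20. At 12 h samples 1, 2 and 3 were at 0.99, 0.06 and -0.75, and at 24 h at 0.45, 0.10 and -0.18. The arrays below 0 were both of run 1. The mean over the 3 times was 0.15 ± 0.19 (SE, 95% interval -0.29 to 0.58, adjusted p = 0.89 in limma's test), and it was -0.05 without run 2. Feature a of REL had a median of 0.30 over 7 arrays, feature c 0.14 over 6 and feature b -0.03 over 6. Feature d of REL had 2 values, -0.77 and -0.17. RELA, whose product RelA is the remaining subunit and the main partner of p50, had values on 6 arrays and none on samples 1 at 12 h and 24 h. It was at 0.09 ± 0.19 (SE) over the 3 times, with 0.99 on sample 2 at 8 h and values from -0.20 to 0.06 on the others. Its 2 features disagreed on sample 2 at 8 h, at 2.67 and -0.68.

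The order of the genes by mean ratio was NFKB2, NFKB1, RELB and REL at 8 h, and NFKB2, RELB, NFKB1 and REL at 12 h and 24 h. At 8 h the means were -1.35 ± 1.69, -0.13 ± 0.27, 0.04 ± 0.53 and 0.22 ± 0.03 in that order (SD, n = 2). At 24 h they were -1.43 ± 0.84, -0.88 ± 0.15, -0.78 ± 0.89 and 0.12 ± 0.32 (SD, n = 3). Neighbours in these orders differed by less than the larger of their SDs, except NFKB1 and REL at 24 h, which differed by 0.90 against 0.89. The gene values of RELB and REL at 24 h did not overlap: the highest RELB value was -0.73 and the lowest REL value was -0.18. They rest on 1 feature for REL on samples 1 and 3 and for RELB on sample 1. Feature c of RELB, at -0.04 on sample 3, lay above the lowest REL value. The share of gene pairs that would separate in this way was not computed.

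The mean of the alternative subunit genes lay below that of the classical ones on all 8 arrays. How often other sets of genes would separate in this way was not computed. The mean of NFKB2 and RELB minus the mean of NFKB1 and REL was -0.39 and -1.0 on samples 1 and 2 at 8 h. It was -1.11, -0.60 and -0.44 on samples 1, 2 and 3 at 12 h, and -0.98, -0.77 and -0.73 at 24 h. It averaged -0.75 ± 0.26 (SD, n = 8), and by time -0.70, -0.71 and -0.83 at 8 h, 12 h and 24 h. By run it averaged -0.58, -1.03 and -0.59 in runs 1, 2 and 3. No test was made of this score, since its members were chosen with results known.

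The alternative genes themselves averaged -0.90 ± 0.41 and the classical genes -0.15 ± 0.30 (SD, n = 8). The gap was not shared by all pairs. NFKB2 lay below NFKB1 on 8 of 8 arrays, below REL on 7 and below RELB on 4, and RELB lay below REL on 7. The share of gene pairs that differ in the same direction on all arrays was not computed. RELB lay below NFKB1 on 5 of 8 arrays and above it on all 3 of run 2, by 0.92 ± 0.22 (SD). Without feature e of NFKB2 the gap averaged -0.60 ± 0.31 (SD, n = 8) and was -0.05 on sample 2 at 8 h. Single features measured on every array gave feature a of NFKB2 minus feature a of NFKB1 as -1.07 ± 0.57, below 0 on 8 of 8, and feature a of RELB minus the same NFKB1 feature as -0.12 ± 0.77, below 0 on 5 of 8.

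**Figure D4:**
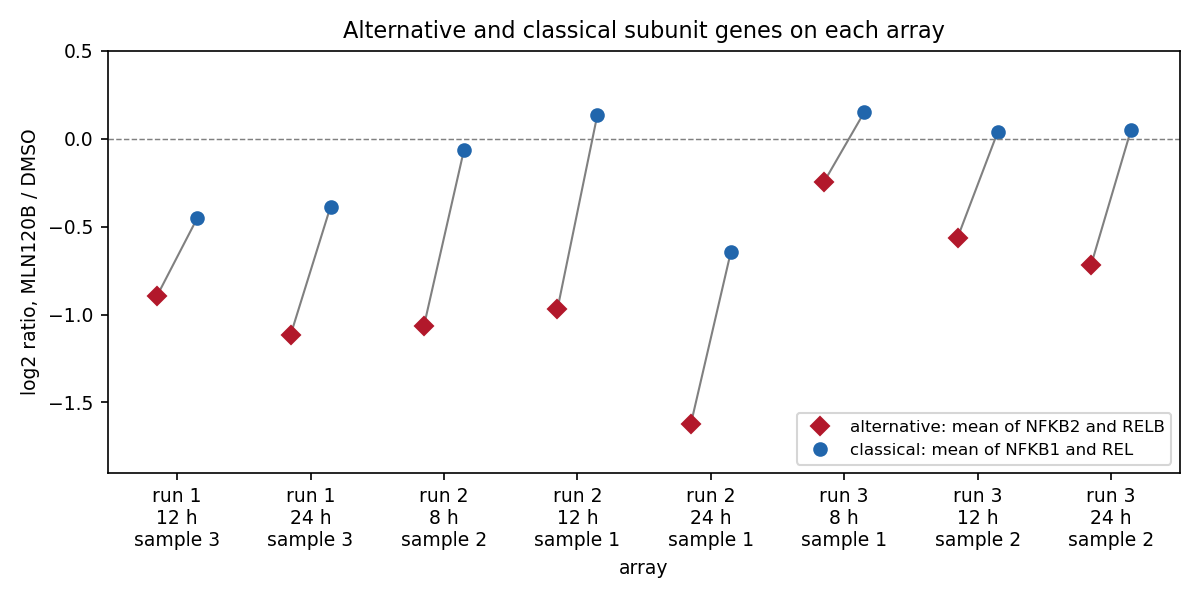
Median-centred log2 ratio (vertical axis) of the alternative subunit genes (mean of NFKB2 and RELB, diamonds) and the classical ones (mean of NFKB1 and REL, circles) on each array, ordered by database run. The diamond lies below the circle on all 8 arrays, by 0.39 to 1.11.

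Ranks within an array, which do not depend on its spread, placed NFKB2 and RELB far below NFKB1 and REL in run 3. Of the 4357 genes measured on sample 2 at 12 h, 6 lay lower than RELB and 146 lower than NFKB2. Of the 4355 on sample 2 at 24 h, 6 lay lower than RELB and 7 lower than NFKB2. On these arrays NFKB1 had 53.4% and 50.2% of genes below it, and REL 63.4% and 66.8%. On sample 1 at 8 h, also of run 3, 2.54% of genes lay lower than RELB, 14.7% lower than NFKB2, 66.4% lower than NFKB1 and 92.3% lower than REL.

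Across all arrays, 0.16% to 14.7% of genes lay lower than NFKB2, and at 24 h 0.16% to 0.74%. For RELB the share was 0.14% to 3.1% in runs 1 and 3, and 72.1%, 69.0% and 14.5% at 8 h, 12 h and 24 h in run 2. For NFKB1 it ran from 3.08% to 66.4% and for REL from 7.56% to 92.3%. In run 1 NFKB1 had 37.6% and 4.01% of genes below it at 12 h and 24 h, and REL 7.56% and 25.1%.

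**Figure D5:**
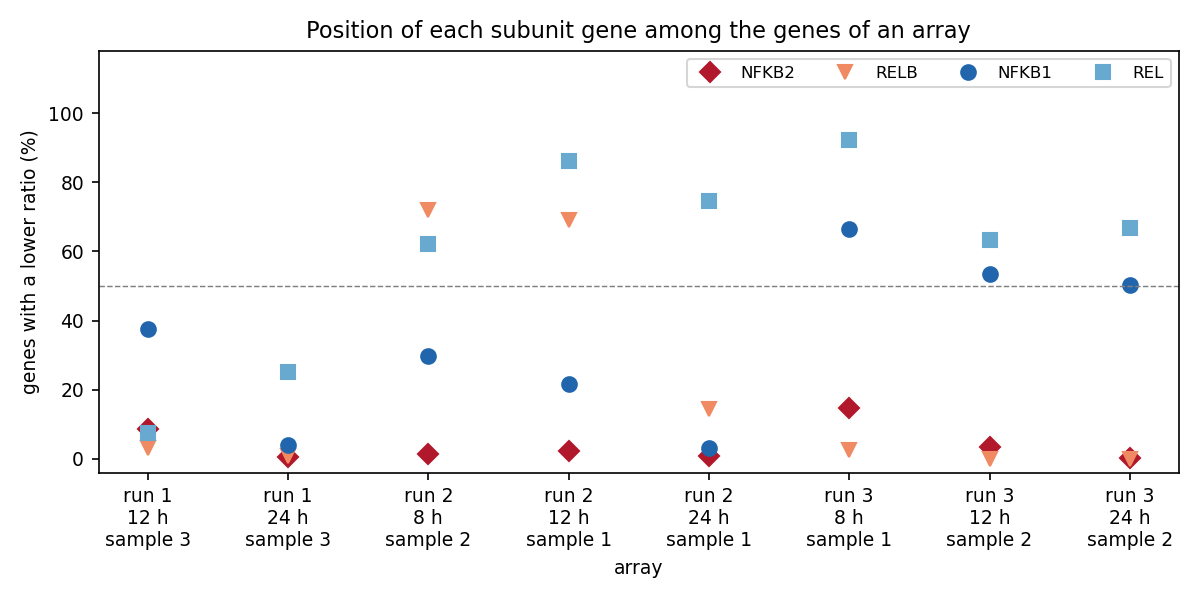
Share of measured genes with a lower ratio than each subunit gene (vertical axis, percent) on each array, ordered by database run. NFKB2 stays under 15% on all 8 arrays, and RELB does so except on the 8 h and 12 h arrays of run 2.

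Other genes of the pathway gave no call in either direction. Of 14 inhibitors and IκB proteins listed, 7 were tested, and 5 had a mean below 0 over the 3 times, with a median of -0.33, while over all rows 51.6% lay below 0 and the median was -0.008. NFKBIA, which encodes IκBα, was at -0.93 ± 0.14 and TNFAIP3, which encodes the deubiquitinase A20, at -0.84 ± 0.18 (SE, n = 8). These and NFKBIE, which encodes IκBε, at -0.77 ± 0.33, had an unadjusted p under 0.05, as did 1.72% of all rows on the lower side. Sample 1 of 24 h gave NFKBIE a value of -3.27, against values between -1.05 and -0.10 on the other 7 arrays, and its mean was -0.435 without that array, a value computed after the data were seen, as are those without 1 array for the genes below. NFKBIA had the smallest p of all rows, with an adjusted p of 0.46 in limma's test. BCL3, a nuclear partner of p50 and p52, was at -0.20 ± 0.23, with 1.41 on sample 1 at 12 h and values from -0.86 to 0.28 elsewhere, and a mean of -0.41 without that array. NFKBIA, TNFAIP3 and NFKBIE were below 0 on all 8 arrays, as were NFKB2 and the adaptor gene MALT1. Of all rows with values on all arrays, genes and unnamed features together, 1.3% were.

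Of 24 kinases and adaptors 12 were tested, with a median of -0.12. The 12 means lay below 0, the one nearest to it being TAB1 at 0.00, while 51.6% of all rows lay below 0. By time, 6 of the 12 lay below 0 at 8 h, 11 at 12 h and 8 at 24 h. MALT1, a protease of antigen receptor signalling, was at -0.49 ± 0.17 (SE), the 1 member with an unadjusted p under 0.05. CHUK, which encodes IKKα, was at -0.25 ± 0.18, and MAP3K14, which encodes NIK, at -0.15 ± 0.18, each with its lowest value on sample 1 at 24 h (-1.62 and -1.20). Without that array their means were -0.097 and 0.00. No feature was annotated to IKBKB, which encodes IKKβ, and TRAF3 had too few values to be tested. Of 16 receptors and ligands 8 were tested, 6 of them above 0 and 2 below, with a median of 0.18. By time, 4 of the 8 lay above 0 at 8 h, 7 at 12 h and 5 at 24 h. TNFRSF17, which encodes the plasma cell receptor BCMA, was at 0.48 ± 0.16 (SE), with an unadjusted p under 0.05, as had 1.68% of all rows on the higher side. The TNFRSF17 mean was 0.29 when sample 2 of 8 h (1.34) was left out. CD27 was at 0.36 ± 0.33, with 2.85 on sample 1 at 24 h, and at 0.055 without that array.

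Likeness of pattern was measured as Pearson's r over the 8 arrays against 2285 other named genes with values on all of them. It describes these arrays, and arrays of a run resemble each other. For NFKB2 the closest were SUN1 (0.97), SLAMF7 (0.96) and RFX5 (0.96). After each array was divided by its SD these became 0.49, 0.34 and 0.84. For RELB the closest were ELP2 (0.95), ANXA1 (0.94) and SOCS2 (0.94), which became 0.35, 0.65 and 0.84. For NFKB1 they were RGS16 (0.99), SFSWAP (0.98) and TSPAN9 (0.97), which became 0.65, 0.93 and 0.83. For REL they were PIAS1 (0.97), AKT2 (0.97) and MAPK13 (0.96), which became 0.93, 0.97 and 0.76.

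The subunit genes were not each other's closest matches. By r, NFKB1 ranked 243 of 2285 genes for NFKB2, and NFKB2 ranked 299 for NFKB1. REL ranked 122 for RELB, and RELB ranked 134 for REL. NFKB2 and NFKB1 correlated at 0.71, and at 0.73 after division by the SD. RELB and REL correlated at 0.69, and at 0.34 after division. NFKB2 and RELB correlated at -0.55 and, after division, at 0.26, so the sign of that relation changed with the scaling of the arrays. The sign also changed for NFKB2 and REL (-0.55 to 0.22), for NFKB1 and REL (-0.40 to 0.24) and for NFKB1 and RELB (0.05 to -0.03). The part of run 2, or of feature e of NFKB2, in these changes was not tested.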

How the data were processed

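RNA was extracted with TRIzol and compared on 2-colour arrays, per the labels' protocols. The authors deposited 1 log2 ratio per feature and array. Base 2 was inferred, since a value of size 12.4 occurs and natural logs of ratios between 16-bit intensities stop at 11.1. How the authors corrected background, filtered spots and normalized was not given in the sources used here. No intensities were used, and precision is limited by the number of arrays.

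Each array was centred on its median. Features with 1 gene in the platform annotation (10169 of 15246) were named, symbols being updated through RefSeq names of GRCh38.p14, and features of a gene were averaged. The other features stayed as rows of their own. Rows with at least 2 values at each time (5411, of them 3311 named genes) entered limma 3.58.1 in R 4.3.3 (lmFit, eBayes). The fit had 1 mean per time over all 8 arrays. Ratios were tested against 0, 2-sided, a test without the spread of the controls themselves, with Benjamini-Hochberg adjustment over all rows and a threshold of 0.05. The fit was also run on simulated rows with independent noise. These had no runs, no missing values and no difference in spread between arrays, so they check only the code. Ranks counted named genes. Python 3.11.15, pandas 2.3.3 and matplotlib 3.10.9 served the rest.

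Members, lists and the rule for named genes (all members, the 2 largest means of each list, 7 preset pathway genes, the 3 genes most like each member) were chosen with earlier results of these data known. NFKBIE and TAB1 were named after their values were seen. Alternatives were quantile and scale normalization (equal median absolute values), no centring, other filters, feature choices, blocks, weights and variances, and runs or arrays left out.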

Additional observations from a re-analysis of the deposited data

How the results depend on the processing

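Of 455 pairs of a member's result and an alternative, 419 kept direction and side of the threshold, 33 turned sign and 3 came to pass, all of NFKB2. These were -1.44 for the mean and -2.28 for 24 h with quantile normalization, and -1.25 for the mean with the database run as a fixed block (adjusted p = 0.020, 0.022 and 0.039 in limma's test). With the run as a random block the NFKB2 mean did not pass (-1.29, adjusted p = 0.99). The NFKB2 mean lay between -1.95 and -0.55 and that of RELB between -1.08 and -0.29 under the alternatives.

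Signs turned for means near 0 and for differences between times, and the cause was not tested. RELB at 8 h was at -0.008 on the values as deposited, -0.39 after quantile and -0.28 after scale normalization, -0.15 with the database run as a fixed block, -0.031 with it as a random block, -0.33 without run 2 and -0.17 without its feature c (an alternative chosen after seeing the data). REL at 12 h was at -0.077 as deposited, -0.038 after quantile and -0.052 after scale normalization, -0.11 with array weights and -0.34 without run 2. REL at 24 h was at -0.038 as deposited, -0.003 with array weights and -0.042 without run 2. REL was at -0.049 over the 3 times without run 2, and at -0.07 at 8 h with the run as a fixed block. For 24 h minus 8 h, REL was at 0.19 with the run as a fixed block, 0.011 with it as a random block and 0.056 without run 1, and NFKB2 was at 0.76 without run 3 and 0.37 with array weights. NFKB1 at 8 h was at 0.061 without run 2.

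With 1 array left out at a time, where a lone array was assumed to vary like the other times, ranges were -0.32 to 0.061 for NFKB1 at 8 h, -0.33 to 0.41 for RELB at 8 h, -0.001 to 0.29 for REL over the 3 times, -0.34 to 0.53 for REL at 12 h, -0.042 to 0.27 for REL at 24 h, -0.26 to 0.056 for REL and -1.27 to 1.11 for NFKB2 for 24 h minus 8 h. With 1 array left out, the NFKB2 values nearest to 0 were -0.15 at 8 h and -0.91 over the 3 times, both without sample 2 at 8 h, and -0.96 at 24 h without sample 1.

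The count of rows past the threshold, 0 for each contrast, became 2 for the mean and 2 for 24 h with quantile normalization, 3 for the mean with the run as a fixed block, and 10, 22 and 11 for the mean, 8 h and 24 h minus 8 h without run 3. With at least 1 value at each time the counts were 2, 10 and 3. With 1 array left out they ran from 0 to 58, 0 to 131 and 0 to 77, the highest without sample 1 at 8 h. The gap between alternative and classical genes was -1.22 after quantile normalization and -0.85 to -0.59 with 1 run left out. No REL feature had values on all arrays, so that feature choice gave no value for REL or for the gap.

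Same-numbered samples had correlations of deviations from -0.32 to 0.29 in 7 pairs. The 4 pairs with an 8 h array were negative, from -0.32 to -0.15. The 2 arrays at 8 h deviate from their mean by opposite amounts, so these signs are not independent. The 3 pairs of 12 h and 24 h arrays were positive, from 0.20 to 0.29, and each also shared a database run. All 7 pairs of the same run were positive, from 0.15 to 0.32. Correlations of the values themselves do not have this limit. For 8 h arrays they were 0.02, -0.19, -0.20 and -0.10 with arrays of the same number, and 0.61, 0.36, 0.22 and 0.10 with arrays of the same run. At 8 h the numbers thus did not follow the likeness of the arrays. Whether the numbers pair the samples was not settled by these values. With the sample number as a replicate block REL at 8 h was at -0.07, RELB at 8 h at -0.15 and REL for 24 h minus 8 h at 0.19, and 0 rows passed for any contrast.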
